A study of Dascyllus aruanus with 17 samples.

Results

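Potassium channels were read in the whole brain of Dascyllus aruanus, a damselfish and a small reef fish that lives in groups on branching corals. A feature of the count table, that is a gene of a de novo transcriptome assembly, was taken as a potassium channel when the gene name of its best orthologue match began with KCN. This rule found 128 of the 21805 features, under 74 distinct names. By name the members fell into 69 features of voltage-gated pore subunits, 18 of inward rectifiers (KCNJ), 15 of calcium- or sodium-activated pore subunits (KCNMA, KCNN and KCNT), 15 of tandem-pore leak channels (KCNK) and 11 of auxiliary subunits (KCNAB, KCNE and KCNIP). A name is that of the best match, not proof of orthology: the bit score of the match had a median of 609.5 over the members and was under 200 for 13 of them.

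The fish were wild, with no genetic change, and each library held 1 brain. All groups had 96 h of habituation under natural light and dark. Control fish then stayed under that cycle, and fish under artificial light at night (ALAN) had dim white light through the dark phase for 72 h. Day brains were taken at ZT11 (zeitgeber time in hours), shortly before sunset, and night brains at ZT23, shortly before sunrise. By day there were 3 control fish (numbered 1, 2 and 4) and 3 ALAN fish, and at night 4 of each. Light was given to colonies, and which fish came from which colony is not stated in the labels. Fish of a group may therefore share a colony, and the p-values measure only the spread between these fish.

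Potassium channels let potassium leave or enter the cell and so set the resting potential and shape the firing of neurons. Voltage-gated members repolarise the action potential, calcium-activated members follow calcium entry, tandem-pore members carry leak currents, and inward rectifiers hold the membrane near the potassium equilibrium. In the brain, glia also take up the potassium that active neurons release, largely through an inward rectifier encoded by KCNJ10. The roles given here are known mainly from mammals.

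The libraries held 14942982 to 23051251 counts. The potassium channels took 0.212% to 0.235% of the library size after scaling with TMM factors, which is not their share of the raw counts. Neuronal markers were present in every library, with a summed level over 22 features of 2363 to 3116 CPM (counts scaled to a common library size with TMM factors). SNAP25 had no feature by name among the neuronal markers, and GFAP had none among the astroglial markers. Some libraries held more of other tissues: the sum of muscle markers was 706 CPM in control day 1 and 644 CPM in the library numbered 4 of that group, and photoreceptor markers summed to 2037 CPM in control night 4. Pituitary markers, a list of 7 features, summed to 845 and 1357 CPM in ALAN day 1 and 2, 1412 CPM in ALAN night 2 and 484 CPM in control night 4, against 62.4 to 112 CPM in the other libraries. Differences were tested with edgeR's quasi-likelihood test, with Benjamini-Hochberg adjustment across all 20782 features that passed a filter on low counts. Of the members, 122 passed that filter, and the other 6 were 1 feature each of KCNT1, KCNS3, KCNK1 and KCNJ16 and 2 of KCNQ5. A feature is called here when its adjusted p was under 0.05.

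Time of day was the comparison in which potassium channels were called. Over both treatments, 5 of 122 members were called between night and day, 4 higher and 1 lower at night, which is 4.10% against 4.34% of all features tested. The 4 that rose at night were both features of KCNJ10, the glial potassium channel, KCNJ8, the pore of a potassium channel gated by ATP, and KCNE4, a small auxiliary subunit. The feature that fell was KCNN4, a calcium-activated channel of intermediate conductance. The share of members called was thus close to the background. The median log2 difference of the members was -0.011, beside 0.011 over all features.

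KCNJ10 encodes Kir4.1, the main inward rectifier of astrocytes and of retinal glia. Its first feature (DN4188_c1_g1) stood at 6.46, 18.3 and 11.9 CPM in the control day libraries and at 27.9, 13.9 and 23.4 CPM in the ALAN day libraries. At night it stood at 52.7, 44.0, 62.6 and 39.3 CPM in controls and at 51.6, 44.1, 58.1 and 64.6 CPM under ALAN. All 8 night libraries were thus above all 6 day libraries, and the night groups overlapped each other. The night over day difference was 1.67 in log2 units (SE 0.224, edgeR adjusted p = 5.28e-04). It was 2.02 in controls (SE 0.322, edgeR adjusted p = 0.00421) and 1.33 under ALAN (SE 0.310, edgeR adjusted p = 0.0665).

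The second KCNJ10 feature (DN4339_c0_g1) stood at 15.1, 25.1 and 13.5 CPM by day in controls and at 34.5, 32.8 and 28.4 CPM by day under ALAN. The night values were 44.0, 47.9, 59.4 and 62.5 CPM in controls and 63.6, 39.1, 43.5 and 68.5 CPM under ALAN. Here too every night library was above every day library, and the ALAN day libraries were all above the control day libraries. The night over day difference was 1.16 on the log2 scale over both treatments (SE 0.173, edgeR adjusted p = 0.00135). In controls it was 1.58 (SE 0.250, edgeR adjusted p = 0.00408), and under ALAN it was 0.75 (SE 0.241, edgeR adjusted p = 0.217).

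The treatments differed in the night over day size of KCNJ10 by less than the test could call. The interaction, the ALAN difference minus the control difference, was -0.69 for the first feature (SE 0.427) and -0.83 for the second (SE 0.338). Their edgeR adjusted p were 0.882 and 0.747. By day, ALAN was 0.83 higher than control on the log2 scale for both features (SE 0.328 and 0.258), with edgeR adjusted p of 0.614 and 0.504. With the counts of both features summed, the night over day difference was called in both treatments, at 1.77 in controls and 1.01 under ALAN.

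Some astroglial markers were also higher at night. The list held 9 features, of which 6 were higher at night over both treatments and 2 were called, and its summed level was 4128 to 6524 CPM by day and 6073 to 8435 CPM at night, so the times overlapped. Both features of GLUL, the glutamine synthetase of astroglia, rose at night (0.99 and 0.87 on the log2 scale, edgeR adjusted p = 0.0254 and 0.0133), and the other 7 were not called. The 2 calls over both treatments were 22.2% of the list, beside 4.34% of all features. At an unadjusted p under 0.05 there were 4, or 44.4% beside 17.7%, and the median log2 difference was 0.39. In controls alone 6 of 9 were higher, with a median of 0.80, while edgeR called 1 and 3 had an unadjusted p under 0.05. Under ALAN alone 4 of 9 were higher, with a median log2 difference of -0.0086, while edgeR called 0 and 2 had an unadjusted p under 0.05. The main GLUL feature was lowest in control day 1 and 4, at 614 and 737 CPM, against 1068 to 2401 CPM elsewhere. KCNJ10 was also lowest in those libraries, and the part of the glial markers in its difference was not tested. The brains were read in bulk, so fewer cells of a type and less RNA per cell cannot be told apart.

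KCNJ8 encodes Kir6.1, which pairs with a sulfonylurea receptor to form channels gated by ATP in vascular cells. The feature (DN6825_c0_g1) was rare, with 304 counts in the 8 night libraries and 26 in the 6 day libraries. By day it was at 0, 0.597 and 0 CPM in controls and at 0.345, 0.0571 and 0.364 CPM under ALAN. At night it was at 1.68, 2.20, 1.77 and 1.54 CPM in controls and at 0.591, 2.34, 1.42 and 3.29 CPM under ALAN. Nearly all night libraries stood apart from the day libraries, and the lowest, ALAN night 1, lay just under control day 2. Scaled for depth, the counts were 7.62-fold higher at night (exact 95% interval 5.10 to 11.9, which covers counting error only), and the edgeR adjusted p was 0.0349. The ratio was 8.05 in controls (4.37 to 16.5) and 7.34 under ALAN (4.32 to 13.4). The call was lost whenever any library other than control day 2, control night 1 or ALAN night 1 was left out, with an adjusted p of up to 0.0885. All control day counts came from control day 2, and without it the fitted log2 difference was 5.49 in place of 2.97.

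KCNE4 encodes a single-pass subunit that inhibits KCNQ1 and some KCNA channels. Its only feature (DN6400_c0_g1) stood at 5.59, 11.2 and 8.01 CPM by day in controls and at 10.6, 16.4 and 17.5 CPM by day under ALAN. At night it stood at 31.8, 18.7, 14.7 and 13.4 CPM in controls and at 25.6, 16.6, 22.96 and 21.4 CPM under ALAN. In controls the night libraries were all above the day libraries, and under ALAN the groups overlapped. The difference over both treatments was 0.89 in log2 units (SE 0.223, edgeR adjusted p = 0.0373). The call was lost without any 1 of 9 libraries, which were control day 1 and 4, all 3 ALAN day libraries, control night 2 and ALAN night 1, 3 and 4, with an adjusted p of up to 0.0944.

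KCNN4, which in mammals serves microglia and red blood cells, was the member that fell. Its feature (DN20785_c0_g1) stood at 2.87, 5.38 and 5.50 CPM by day in controls and at 5.33, 5.42 and 6.49 CPM by day under ALAN. The night values were 1.73, 2.30, 1.68 and 2.82 CPM in controls and 2.53, 3.43, 2.46 and 2.89 CPM under ALAN. Within each treatment the night libraries were all below the day libraries. The log2 difference over both treatments was -1.06 (SE 0.205, edgeR adjusted p = 0.00863), from -1.10 in controls and -1.02 under ALAN. Neither of these was called on its own by edgeR with all libraries. DESeq2 called both (DESeq2 adjusted p = 0.0115 and 0.0292). Without control day 1, edgeR called the difference in controls (edgeR adjusted p = 0.0429). Blood markers, a list of 5 features, summed to 1682 to 6051 CPM by day and 999 to 5109 CPM at night, with 0 of 5 called by edgeR and 0 at an unadjusted p under 0.05. All 5 were lower at night in each treatment, with a median log2 difference of -0.45 over both and -0.90 under ALAN, where 1 had an unadjusted p under 0.05. Their part in the KCNN4 result was not tested.

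**Figure D1:**
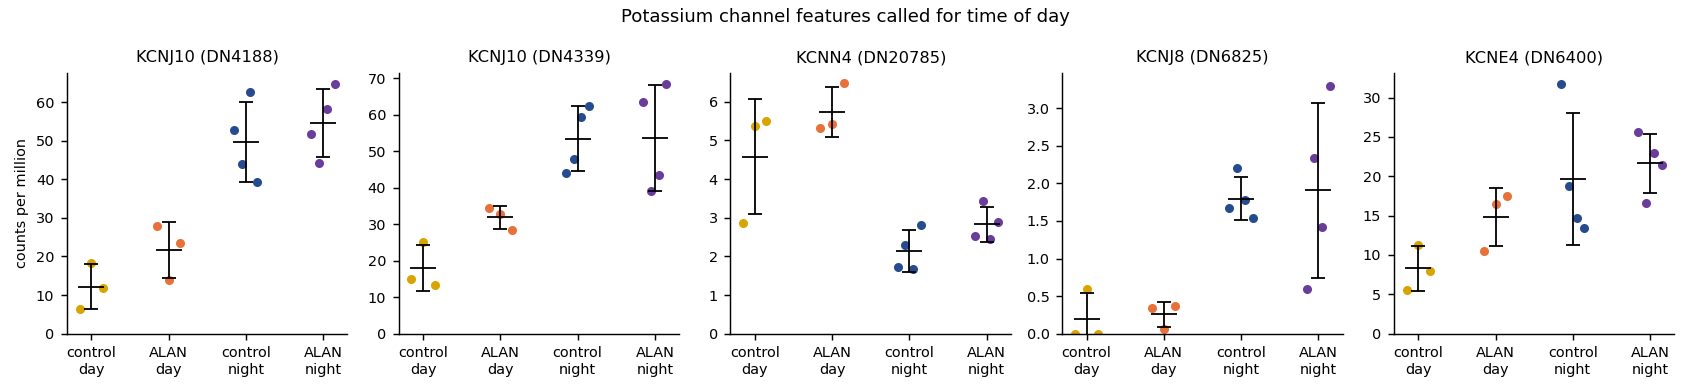
CPM (vertical axes, from 0) of the 5 potassium channel features called between night and day, by group; points are libraries, and bars are the mean and SD. All night libraries of both KCNJ10 features lie above all day libraries, and within each treatment KCNN4 is lower at night.

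Separate treatments gave fewer calls. In controls 2 of 122 members were called between night and day, both KCNJ10, which is 1.64% against 2.07% of all features. Under ALAN 0 members were called by edgeR, against 1.03% of all features, while 16 had an unadjusted p under 0.05 (7 higher, 9 lower) and DESeq2 called 3. Of the 121 members with an adjusted p from DESeq2 it called 8 in controls, 3 under ALAN and 12 over both treatments. These are 6.61%, 2.48% and 9.92% of them, beside 5.3%, 3.18% and 8.67% of all features. Its 3 calls under ALAN were the first KCNJ10 feature, KCNJ8 and KCNN4. Under ALAN the members' median log2 difference was -0.081 and 45 of 122 were higher at night, which is 36.9%, beside 0.0031 and 50.4% over all features. In controls the median was 0.024, with 64 of 122 higher. The shares of members at an unadjusted p under 0.05 were 11.5% in controls, 13.1% under ALAN and 15.6% over both treatments, beside 14.6%, 11.1% and 17.7% of all features. In controls 8 members were higher and 6 lower in every night library, against 6.59% and 6.85% of all features (6.56% and 4.92% of members). Under ALAN 8 were higher and 12 lower, 6.56% and 9.84%, against 5.72% and 5.66%.

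The night over day differences of the members in controls and under ALAN come from separate libraries. They had the same sign for 75 of 122 members, or 61.5%, beside 59.3% of all features. As a description across features, which are not independent, Pearson's r was 0.337 (n = 122) and Spearman's rho was 0.252. Over all features r was 0.186 and rho was 0.251.

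**Figure D2:**
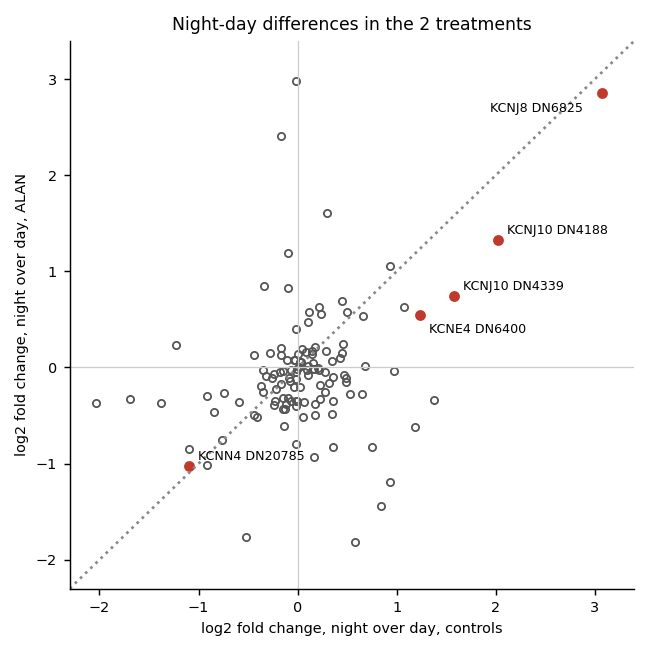
Night over day log2 fold change of the 122 tested members in controls (horizontal) and under ALAN (vertical); filled points are the 5 called over both treatments, and the dotted line marks equal values. KCNJ10 lies below that line at 2.02 and 1.33 and at 1.58 and 0.75, while KCNN4 lies near it at -1.10 and -1.02.

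Over both treatments, the summed level of the inward rectifier class separated night from day only with KCNJ10 in it. Of its 17 tested members 3 were called between night and day, both KCNJ10 features and KCNJ8, which is 17.65% against 4.34% of all features. The class summed to 218.5 to 269.6 CPM by day and 306.8 to 344.0 CPM at night, with no overlap. The day groups did not overlap either, at 218.5 to 236.8 CPM in controls and 255.6 to 269.6 CPM under ALAN. For ALAN against control by day, edgeR called 0 of the 17 tested members. There were 4 at an unadjusted p under 0.05, all higher under ALAN (23.5%, beside 6.92% of all features). Without KCNJ10 the remaining 16 features summed to 193.5 to 222.9 CPM by day and 200.0 to 228.8 CPM at night, which overlap. In controls alone they still did not overlap, at 193.5 to 206.9 CPM by day and 210.7 to 225.3 CPM at night. Under ALAN they did, at 200.8 to 222.9 CPM and 200.0 to 228.8 CPM. The most counted inward rectifier was KCNJ6 (DN729_c0_g2), a channel opened by G proteins. It ran from 79.9 CPM (median 88.2) to 97.3 CPM by day and from 86.4 CPM (median 98.3) to 107.4 CPM at night. It was not called over both treatments (0.16 on the log2 scale, edgeR adjusted p = 0.275).

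The voltage-gated class had 66 tested members and 0 calls by edgeR between night and day. At an unadjusted p under 0.05 there were 10, all lower at night, or 15.2% against 17.7% of all features. DESeq2 called 5 of the class, or 7.58% against 8.67%, among them KCNC2, KCNS2 and 2 KCNH7 features. Both shares were below the background. The summed level of the class was 1010 to 1120 CPM by day and 916 to 986 CPM at night, with no overlap, but the times overlapped (975 to 1123 and 921 to 1066 CPM) when libraries were scaled by their totals alone. Neuronal markers summed to 2766 to 3116 CPM by day and 2363 to 2816 CPM at night, with 1 of 22 features called, lower at night. Of the 22, only 4 were higher at night. At an unadjusted p under 0.05 there were 5 (1 higher, 4 lower), or 22.7% beside 17.7% of all features. The part of these markers in the class sum was not tested. The sums themselves were not tested, since the class was chosen with results known.

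KCNC genes encode Kv3 channels, which let neurons fire at high rates, and they made up most of the class difference. Their 10 features summed to 298 to 394 CPM by day and 229 to 301 CPM at night over both treatments, a slight overlap. Within each treatment these sums did not overlap. They were 310.4 to 394.1 CPM by day and 269.3 to 301.1 CPM at night in controls, and 298.2 to 374.5 CPM and 228.7 to 296.1 CPM under ALAN. Without the KCNC features the voltage-gated class also overlapped over both treatments, at 699.5 to 769.7 CPM by day and 671.7 to 716.7 CPM at night. In controls alone it did not, at 699.5 to 740.9 CPM by day and 671.7 to 695.3 CPM at night. Under ALAN it did, at 701.3 to 769.7 CPM and 687.7 to 716.7 CPM. KCNC2 (DN1051_c0_g1) ranged from 49.1 to 121.1 CPM by day and from 39.5 to 62.9 CPM at night, a difference of -0.60 in log2 units (SE 0.178, edgeR adjusted p = 0.0777).

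KCNS2 is a silent subunit that modifies KCNB channels and forms no channel alone. Its feature (DN9384_c0_g2) stood at 29.3, 28.7 and 31.1 CPM in control day and at 35.2, 29.6 and 35.5 CPM in ALAN day. The night values were 23.9, 27.5, 25.01 and 24.9 CPM in controls and 22.2, 28.7, 27.6 and 26.2 CPM under ALAN. The night libraries were all below the day libraries, although the highest night and the lowest day values nearly met. The difference of -0.29 (log2, SE 0.0827, edgeR adjusted p = 0.0658) was not called. Of all members, 2 were thus above and 2 below in every night library, 1.64% each, against 1.22% and 1.37% of all features.

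Other voltage-gated features, each the most counted of its subfamily, overlapped between the times. KCNA3 (DN5975_c0_g1), a Shaker-type channel, ran from 53.9 to 78.6 CPM by day and from 48.2 to 69.5 CPM at night. KCND3 (DN10304_c0_g4), which carries fast inactivating current in dendrites, ran from 103.3 to 133.5 CPM by day and from 83.1 to 114.6 CPM at night. KCNH7 (DN3663_c0_g1), of the ERG family, ran from 18.2 to 36.5 CPM by day and from 19.9 to 46.0 CPM at night. The silent subunits KCNF1 (DN9310_c0_g1) and KCNG2 (DN4444_c0_g1) ran from 16.4 to 27.5 and from 11.4 to 23.7 CPM by day, and from 19.0 to 28.8 and from 4.51 to 13.5 CPM at night. KCNV1 (DN30016_c1_g1) was rare, from 0.197 to 6.39 CPM by day and from 0 to 2.58 CPM at night.

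**Figure D3:**
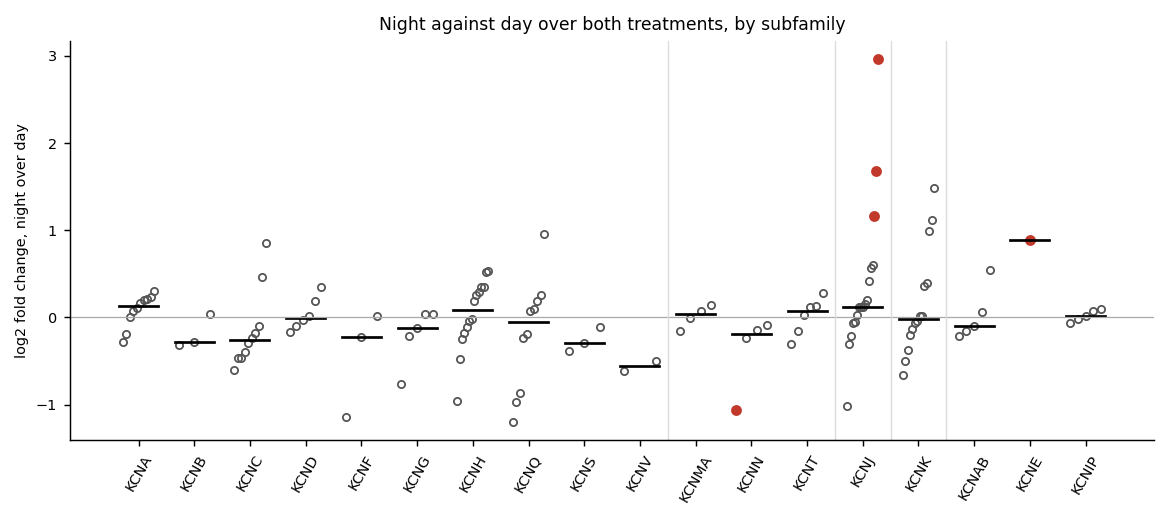
Night over day log2 fold change (vertical axis) of the 122 tested members over both treatments, by subfamily; bars are subfamily medians, filled points are called, and vertical lines part the classes. The called points are 3 of KCNJ, 1 of KCNN and the only KCNE feature, while the KCNC median is -0.26.

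In the remaining classes, most levels overlapped between night and day. The calcium- or sodium-activated class summed to 251.2 to 298.2 CPM by day and 209.2 to 278.6 CPM at night. Of its 14 tested members only KCNN4 was called, which is 7.14% against 4.34% of all features. KCNMA1 (DN1404_c0_g3), the large-conductance channel opened by calcium and voltage, ran from 43.5 to 50.2 CPM by day and from 36.4 to 55.6 CPM at night. KCNN2 (DN10700_c0_g1), a small-conductance channel of the afterhyperpolarisation, ran from 16.0 to 21.5 CPM by day and from 15.7 to 19.0 CPM at night. KCNT1 (DN2751_c2_g1), opened by sodium, ran from 47.6 to 67.7 CPM by day and from 37.3 to 76.0 CPM at night.

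Of the 14 tested tandem-pore members 0 were called by edgeR between night and day, while DESeq2 called 2 and 3 had an unadjusted p under 0.05. These are 14.3% and 21.4% of the class, beside 8.67% and 17.7% of all features, and rest on few members. The calls of DESeq2 were KCNK13 lower and KCNK6 higher. KCNK13 (DN17874_c0_g1), a leak channel found in microglia, ran from 8.96 to 12.6 CPM by day and from 4.62 to 10.2 CPM at night (-0.66 on the log2 scale, edgeR adjusted p = 0.0654). KCNK1 (DN6203_c0_g1), the most counted of the class, ran from 32.6 to 52.2 CPM by day and from 34.8 to 51.1 CPM at night. The auxiliary subunits KCNAB2 (DN3197_c0_g2) and KCNIP1 (DN7760_c0_g1), partners of KCNA and KCND channels, ran from 61.2 to 103.4 and from 130.1 to 157.4 CPM by day. At night they ran from 53.1 to 104.0 and from 94.5 to 178.0 CPM.

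**Figure D4:**
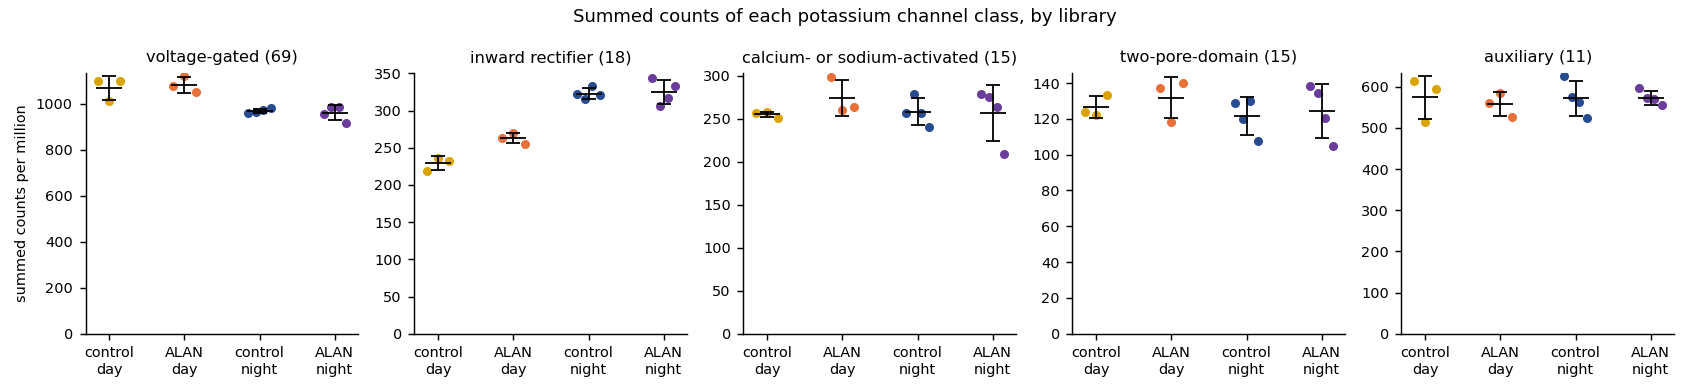
Summed CPM (vertical axes, from 0) of each potassium channel class by group, with the number of features in brackets; points are libraries, and bars are the mean and SD. Inward rectifiers run from 218.5 to 269.6 by day and from 306.8 to 344.0 at night, voltage-gated members from 1010 to 1120 and from 916 to 986, though these overlap when scaled by library totals alone, and the other classes overlap.

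ALAN against control gave no call among the potassium channels at either time. At night 0 of 122 members were called by edgeR, against 0.0289% of all features, with 5 at an unadjusted p under 0.05 (1 higher, 4 lower) and 0 by DESeq2, against 0.198% of all features. By day 0 were called, against 0.00481% of all features, with 12 at an unadjusted p under 0.05 (9 higher, 3 lower) and 0 by DESeq2, against 0.648%. The shares at an unadjusted p under 0.05 were 4.10% and 9.84% of members, beside 4.61% and 6.92% of all features. The members' median log2 difference was 0.00041 at night and 0.066 by day, beside -0.0073 and 0.012. Over both times 0 were called, against 0.00481% of all features, with 10 at an unadjusted p under 0.05 (8 higher, 2 lower; 8.20%, beside 5.71% of all features) and 0 by DESeq2, against 0.744%. The interaction gave 0 calls, against 0% of all features, with 9 members at an unadjusted p under 0.05 (2 higher, 7 lower; 7.38%, beside 6.15% of all features) and 0 by DESeq2, against 0.271%.

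At night the smallest p among members was that of KCNK4, a leak channel opened by stretch and lipids. Its feature (DN23798_c0_g1) stood at 3.35, 3.55, 5.55 and 6.20 CPM in control night and at 1.34, 1.10, 1.56 and 2.94 CPM in ALAN night. By day it stood at 1.43, 2.66 and 3.22 CPM in controls and at 2.86, 4.28 and 4.78 CPM under ALAN. The night groups did not overlap, with ALAN lower, while the day groups did, with ALAN higher on average. Of all features, 1.18% were lower in every ALAN night than in every control night library, and KCNK4 was the only such member of 122. In the other direction the only such member was a KCNK9 feature, against 1.32% of all features. The log2 difference at night was -1.43, with an SE of 0.378 and an edgeR adjusted p of 0.888. The interaction was -2.12 (SE 0.573, edgeR adjusted p = 0.596).

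The next members at night were KCNAB2, KCNH4 and KCNAB1. A minor KCNAB2 feature (DN20447_c0_g1) stood at 1.73 to 3.75 CPM in control night and at 2.93 to 8.60 CPM in ALAN night (1.19 on the log2 scale, edgeR adjusted p = 0.920). KCNH4 (DN18143_c0_g1), of the ELK family, stood at 3.35 to 9.16 CPM and at 1.94 to 3.62 CPM (-1.15 on the log2 scale, edgeR adjusted p = 0.981). KCNAB1 (DN2035_c0_g1) stood at 29.9 to 53.3 CPM and at 23.8 to 33.6 CPM (-0.61 on the log2 scale, edgeR adjusted p = 0.998). All 3 overlapped between the groups.

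By day the smallest p among members was that of KCNH6, an ERG channel. Its feature (DN7411_c0_g1) stood at 4.59, 6.14 and 8.60 CPM in control day and at 11.8, 29.3 and 16.2 CPM in ALAN day. At night it stood at 10.9 to 25.6 CPM in controls and at 7.78 to 21.2 CPM under ALAN. The control day libraries lay below those of the other groups, except that control day 4 lay above the lowest ALAN night library. The day difference was 1.56 in log2 units (SE 0.454, edgeR adjusted p = 0.461), and the interaction was -1.71 (SE 0.589, edgeR adjusted p = 0.723).

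KCNS3 (DN33118_c0_g1), a silent subunit, stood at 0.430, 0.815 and 0.643 CPM in control day and at 1.63, 2.28 and 1.87 CPM in ALAN day. The day groups did not overlap, and the difference was 1.60 in log2 units (SE 0.509, edgeR adjusted p = 0.526). A KCNJ4 feature (DN13497_c0_g1), a strong inward rectifier, ran by day from 5.91 to 9.23 CPM in controls and from 9.09 to 12.04 CPM under ALAN (0.62 on the log2 scale, edgeR adjusted p = 0.595). Another KCNJ4 feature (DN4314_c0_g2) had an interaction of -2.28 (log2, SE 0.867, edgeR adjusted p = 0.735) at levels of 0.521 to 4.16 CPM. Over both times KCNG3 (DN3171_c1_g2), a silent subunit, was 0.29 higher under ALAN in log2 units (SE 0.112, edgeR adjusted p = 0.757). By day 12 members were higher and 5 lower in every ALAN than in every control library, 9.84% and 4.10%, beside 5.33% and 5.35% of all features.

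Markers of other tissues differed between these groups too. Liver markers were at an unadjusted p under 0.05 for 11 of 13 tested features by day, all lower under ALAN, with 0 called by edgeR and sums of 309.5 to 839.8 CPM in control fish and 124.0 to 384.9 CPM in ALAN fish. By day the muscle markers ran from 89.6 to 705.7 CPM in controls and from 100.9 to 134.1 CPM under ALAN. All 7 pituitary features were higher under ALAN by day, with a median log2 difference of 1.45 and 0 called by edgeR, 1 at an unadjusted p under 0.05. At night 8 of 13 liver and 12 of 21 photoreceptor features had an unadjusted p under 0.05, all lower under ALAN. Their medians were -1.99 and -2.81 on the log2 scale, with 0 called by edgeR. Of all features, 6.92% by day and 4.61% at night had an unadjusted p under 0.05. The night liver sums overlapped, at 125.7 to 315.2 CPM in controls and 122.7 to 302.5 CPM under ALAN. Photoreceptor sums were 147.5, 472.7, 162.7 and 2037 CPM in control night 1 to 4 and 85.7 to 172.9 CPM in ALAN night. The part of these markers in the ALAN differences was not tested.

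**Figure D5:**
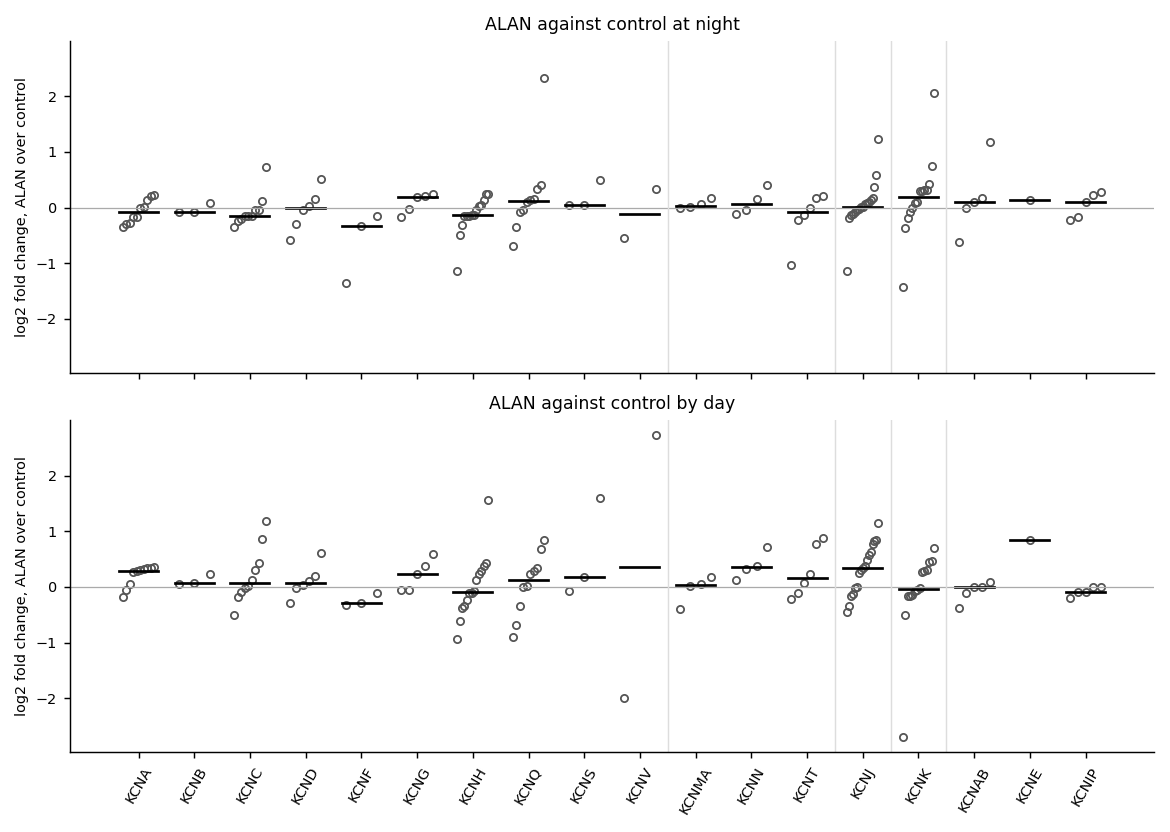
ALAN over control log2 fold change (vertical axes) of the 122 tested members at night (top) and by day (bottom), by subfamily; open points are features, none of them called, and bars are subfamily medians. The lowest KCNK point at night is KCNK4 at -1.43, and the highest KCNH point by day is KCNH6 at 1.56.

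Many members share a name, and these did not always move alike. Of 33 names with at least 2 tested features, 16 had all features on the same side of 0 between night and day. KCNJ10 was among them, with both features higher at night. The 5 KCNH7 features ran from -0.96 to 0.34 on the log2 scale and matched 2 orthologues, so they may include parts of the same gene. For 12 of the 33 names all features shared a best match. Of the members, 25 shared an assembly component with another, and the authors' counting could have split reads among near-identical copies.

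The spread between fish was like that of other features. The median within-group SD was 0.375 on the log2 scale over members and 0.383 over all features. It was smallest for KCNJ6 (DN729_c0_g2), at 0.111.

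Genes that work with potassium channels were read as a list of 56 features, all tested, which held HCN channels, sodium pump subunits, chloride cotransporters and accessory proteins. Over both treatments 2 of 56 were called between night and day, 1 in each direction, which is 3.57% against 4.34% of all features. ATP1B4 (DN3000_c0_g1), named after a beta subunit of the sodium pump family, rose at night, from 159.9 to 486.8 CPM by day to 541.6 to 669.0 CPM (0.75 in log2 units, SE 0.170, edgeR adjusted p = 0.0233). Its day and night libraries did not overlap. ATP1B3 (DN2948_c0_g1), another beta subunit, fell from 821.4 to 1054 CPM by day to 646.3 to 853.1 CPM at night (-0.30, SE 0.0755, edgeR adjusted p = 0.0364). In controls ATP1B4 alone was called, and in the other contrasts 0 of 56 were called by edgeR, with 2 to 6 at an unadjusted p under 0.05.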

How the data were processed

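Whole-brain libraries (non-stranded, 1 brain each) were sequenced on an Illumina NovaSeq, per the labels. The deposited table gives expected counts, read numbers estimated by the quantifier, and 97.21% of the members' values were not whole. Per the submitters' processing notes Trimmomatic 0.39, Bowtie2 and RSEM were used, with roles and order not given. No source used here says whether molecular identifiers were collapsed. The deposited annotation, with the bit score of each match, is, per the file headers, output of eggNOG-mapper 2.1.7. No genome, gene length or sequence was used, so levels were not compared between genes.

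Expected counts were rounded, filtered with filterByExpr (minimum count 10, minimum total count 15; 1023 features removed), scaled by TMM (factors 0.87 to 1.08) and fitted over 14 libraries with edgeR 4.0.16 in R 4.3.3. The 7 contrasts came from 1 model with a mean per group. SE is the absolute log2 fold change over the square root of F. The scripts were tested on simulated data. DESeq2 1.42.0, RLE factors, no filter, the compared groups alone, a replicate block, counts summed by name, and leaving out each library were alternatives.

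The members and lists were chosen with earlier results of these data known. RHOA and RHOB, which the name rule had matched, were taken out of the photoreceptor markers. Members named are those called in any contrast, the 4 with the smallest p in each, other features of a called name, and the most counted of each subfamily; KCNC2, KCNK13 and KCNK6 were added after their values were seen. Some members that fall under this rule are not reported here. Partner genes are named when called. A further 3 assembly libraries were not analysed here, and 0 columns belonged to other samples.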

Additional observations from a re-analysis of the deposited data

Results flagged for a closer look

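In 2 of the 62 groups of 4 libraries looked at, 1 library lay far from the other 3 (Dixon's ratio of gap to range, past its critical value); chance gives about 1 in 20, or 3.1. KCND3 (DN10304_c0_g4) was lowest in ALAN night 3, at 97.55 CPM against 105.4 to 106.4 CPM in the other 3. KCNIP1 (DN7760_c0_g1), which encodes a partner of KCND channels, was lowest in control night 4, at 142.5 CPM against 165.4 to 167.9 CPM. Control night 4 was also the library with the high photoreceptor markers, whose part in the KCNIP1 value was not tested.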

How the results depend on the processing

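The counts of members called for ALAN at night, by day and over both times and for the interaction were 0 under every alternative run. Between night and day in controls 2 were called, with 8 by DESeq2, 1 with counts summed by name, and 2 to 6 when a library was left out (6 without control day 2). Under ALAN 0 were called, with 3 by DESeq2, 1 with counts summed by name, and 0 to 1 when a library was left out (1 without control day 1 or 2). Over both treatments 5 were called, with 12 by DESeq2 and 3 to 9 when a library was left out: 9 without control day 2, and 3 without control day 1 or 4, any ALAN day library or ALAN night 3. The share of all features called moved as well. In controls it was 2.07%, with 5.3% by DESeq2, 2.65% summed by name, and 1.02% to 2.61% when a library was left out. Under ALAN it was 1.03%, with 3.18%, 1.29%, and 0.62% to 1.01%. Over both treatments it was 4.34%, with 8.67% by DESeq2, 2.95% without control day 4 and 5.1% without control day 2. The cause of these changes was not tested, except that summing by name leaves fewer features. Both KCNJ10 features and KCNN4 were called over both treatments in all 19 alternatives, with KCNJ10 counted as 1 where summed.

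With the replicate block 3 members were called over both treatments, beside 2.97% of all features. In deviations from the group means, same-numbered libraries correlated at -0.167 to 0.103 and others at -0.147 to 0.157. The replicate numbers thus showed no sign of pairing, but these values cannot exclude that fish shared a colony.

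Scaling by library totals alone, chosen after seeing the data, gave night minus day class sums of -68.6 CPM for voltage-gated members (-111.4 by TMM) and 2.70 CPM for calcium- or sodium-activated members (-7.43). The latter ran from -10.5 to -0.590 CPM when a library was left out, and was -0.687 CPM without ALAN day 1 and -0.590 CPM without ALAN night 4. The auxiliary sum, 7.09 CPM, ran from -3.10 to 16.6 CPM when a library was left out, and was -0.775 CPM without ALAN day 3 and -0.675 CPM without control night 1. Fitting the compared groups alone does not apply to the interaction and the averages over both treatments or times. Depth limits KCNJ8, with 26 day counts, and may limit other members with low counts, for which no cutoff was tested.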
